A study of Mus musculus with 4 samples.

Results

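Peaks of phosphorylated ATF2 were examined at the genes of the eukaryotic translation initiation factors in mouse haematopoietic stem cells. The genes were taken by symbol: every protein-coding gene of the RefSeq annotation of GRCm38.p6 (mm10) whose symbol is Eif followed by a digit, with 5 eIF2-related symbols left out. The rule gave 51 genes out of 21887 that code for protein on chromosomes 1-19, X and Y. A gene was called marked in a library when the summit of a peak, its highest point, lay within 1 kb of either end of the gene. The rule for choosing genes used no measured value, but the set was chosen with earlier results of these data known.

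The cells were bone marrow stem cells of wild-type C57BL/6J mice, sorted as lineage-negative, Sca-1+, Kit+, CD48- and CD150+, and none was treated. CUT&Tag was used, in which an antibody directs a transposase to chromatin so that nearby DNA is tagged, amplified and sequenced. The antibody defined the 2 groups, ATF2 phosphorylated at T69/71 and ATF2 phosphorylated at S490/498, with 2 libraries each. All groups share genotype and cell type, and the labels do not give the mice, their age or any pooling, so spread between replicates may be technical. The titles name T69/71, but the antibody field of the same samples names T67/71. A control without specific antibody was not analysed here.

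The T69/71 lists held 12464 and 14716 peaks (replicates 1 and 2) and the S490/498 lists 7132 and 435. Replicate 2 of S490/498 thus stands apart, and the main difference between antibodies is given with and without it. The peak names inside the lists do not follow the labels: replicate 1 of T69/71 and both S490/498 lists carry one naming series, and replicate 2 of T69/71 another. Whether a list was assigned to the wrong antibody cannot be told from the files, so every value given by antibody rests on the labels. Each fold below is the authors' deposited fold enrichment of the signal at the summit over the local background of the same library, and q is the false discovery rate given by the peak caller. A gene's strongest peak is the one with the highest −log10 q within 1 kb of an end. Values written as a pair for T69/71 are replicates 1 and 2 in that order. The number of fragments piled up at each summit was recovered from the fold and the p value. As a check of the cell label, 12 stem cell marker genes were looked up: 3, 3, 2 and 0 were marked in the libraries in the above order, with Hlf alone in both T69/71 libraries. These shares do not exceed those of all genes given below. None of 7 lymphoid, 4 erythroid and 4 stromal or endothelial markers was marked in both T69/71 libraries, and of 5 myeloid markers Mpo was. A peak is not a measure of expression, so this does not settle which cells were present.

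Initiation factors bring the ribosome to the start codon. The eIF1, eIF2 and eIF3 groups work on the small subunit, where eIF2 carries the initiator tRNA and eIF2B reloads eIF2 with GTP. The eIF4 group binds the mRNA cap, unwinds the leader and bridges to eIF3, while eIF5 and eIF5B act in GTP hydrolysis and subunit joining. Haematopoietic stem cells are known for a low rate of protein synthesis. ATF2 is a leucine zipper factor of the ATF/CREB family that binds the cyclic AMP response element (CRE) and, with Jun partners, related AP-1 sites.

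Promoter sequences are shown for 6 genes that were marked in both T69/71 libraries and in S490/498 replicate 1. They are Eif1, 2 subunit genes of eIF3, 2 helicase genes of the eIF4A family and Eif5, and each has a start region that no other gene overlaps. Each sequence is the 200 bases before the RefSeq start in GRCm38.p6, written 5′ to 3′ on the gene's strand. Capitals mark matches, on either strand, to TGACG, the core of the CRE, or to TGANTCA, the AP-1 form. The windows are chr11:100319749-100319948 (+ strand) for Eif1, chr15:77970825-77971024 (− strand) for Eif3d, chr7:108934215-108934414 (+ strand) for Eif3f, chr11:69672424-69672623 (− strand) for Eif4a1, chr11:119300044-119300243 (− strand) for Eif4a3 and chr12:111537901-111538100 (+ strand) for Eif5.
Eif1: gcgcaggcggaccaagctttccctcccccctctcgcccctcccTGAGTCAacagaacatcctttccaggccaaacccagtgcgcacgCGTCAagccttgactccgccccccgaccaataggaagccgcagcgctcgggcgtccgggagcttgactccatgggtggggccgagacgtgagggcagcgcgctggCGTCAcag
Eif3d: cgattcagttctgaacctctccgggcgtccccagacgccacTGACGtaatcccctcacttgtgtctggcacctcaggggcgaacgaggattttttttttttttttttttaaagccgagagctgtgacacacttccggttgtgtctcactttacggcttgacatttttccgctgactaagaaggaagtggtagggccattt
Eif3f: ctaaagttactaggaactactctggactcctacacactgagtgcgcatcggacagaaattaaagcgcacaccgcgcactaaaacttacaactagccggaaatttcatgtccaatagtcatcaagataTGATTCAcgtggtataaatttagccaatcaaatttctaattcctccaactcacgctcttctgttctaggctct
Eif4a1: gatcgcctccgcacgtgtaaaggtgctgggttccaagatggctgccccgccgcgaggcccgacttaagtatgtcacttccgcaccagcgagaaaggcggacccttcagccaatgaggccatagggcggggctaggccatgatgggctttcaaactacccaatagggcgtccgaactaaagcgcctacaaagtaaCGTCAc
Eif4a3: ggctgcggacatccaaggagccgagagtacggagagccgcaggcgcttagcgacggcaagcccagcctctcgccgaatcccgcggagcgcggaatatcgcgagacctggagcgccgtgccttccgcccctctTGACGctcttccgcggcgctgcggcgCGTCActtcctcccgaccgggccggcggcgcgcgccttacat
Eif5: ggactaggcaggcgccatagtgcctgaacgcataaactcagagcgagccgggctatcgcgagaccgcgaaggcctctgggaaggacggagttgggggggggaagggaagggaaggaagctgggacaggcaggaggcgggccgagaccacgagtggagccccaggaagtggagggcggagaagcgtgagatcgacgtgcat
Eif1 carries both forms, Eif3f the AP-1 form alone, Eif3d, Eif4a1 and Eif4a3 the CRE core alone, and Eif5 neither. Eif1ax, Eif2b2, Eif3j1, Eif4ebp2, Eif4g1 and Eif4h meet the same conditions for marking and overlap but are not shown. In the 200 bases before their starts, Eif2b2 and Eif4ebp2 carry the CRE core alone and the rest carry neither form. The genes shown thus hold matches more often than those left out. A match is a description of the letters and does not show a binding site.

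Many initiation factor genes had a T69/71 peak at an end, from factors that scan for the start codon (Eif1, Eif1ax) to the cap-complex helicase Eif4a1 and the elongation-linked factor Eif5a. In T69/71 replicate 1, 33 of the 51 genes were marked (64.7%, exact binomial 95% interval 50.1 to 77.6), against 27.5% of all protein-coding genes. In T69/71 replicate 2, 29 were marked (56.9%, interval 42.2 to 70.7), against 27.9%. Both T69/71 libraries marked the same 27 genes (52.9%, interval 38.5 to 67.1), against 21.1% of all genes. The intervals cover counting error only, and genes are not replicates of an antibody.

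S490/498 replicate 1 marked 21 initiation factor genes (41.2%, interval 27.6 to 55.8), against 17.9% of all genes. S490/498 replicate 2 marked 0 of 51, against 0.224% of all genes. A total of 18 genes were marked in both T69/71 libraries and in S490/498 replicate 1 (35.3%, interval 22.4 to 49.9), against 14.3% of all genes. In all, 35 genes were marked in at least 1 library and 16 in none.

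With each T69/71 list cut to the length of S490/498 replicate 1, both T69/71 libraries marked 18 of the 51 genes (35.3%), against 13.6% of all genes. Of the 51 genes, 39 have a RefSeq promoter window of 300 bases, and 33 of these are CpG-rich (an observed to expected CpG ratio of at least 0.6 and at least 50% GC), or 84.6% against 48.3% of all windows. Among the 33, both T69/71 libraries marked 18 (54.5%, interval 36.4 to 71.9), against 37.9% of the 8452 CpG-rich genes. S490/498 replicate 1 marked 17 (51.5%, interval 33.5 to 69.2), against 31.9%. The part of CpG content in the counts was not tested, and this subset was added after the data had been seen.

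**Figure D1:**
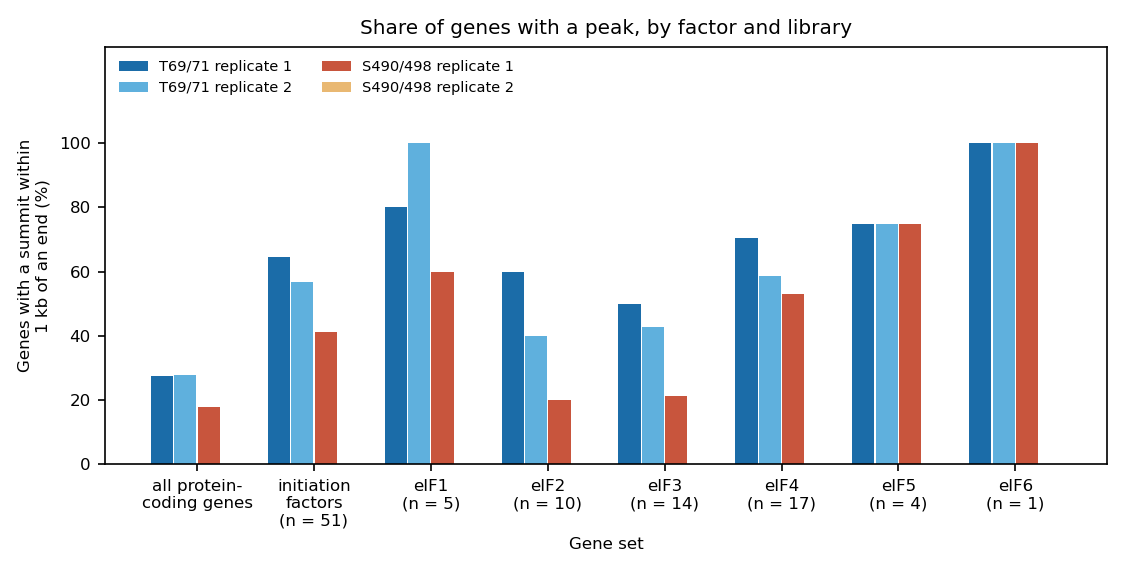
Share of genes (y axis, percent) with a peak summit within 1 kb of an end, for all protein-coding genes, the 51 initiation factor genes and each factor group (x axis, number of genes in brackets), with 1 bar per library. The initiation factor bars reach 64.7%, 56.9% and 41.2% in the first 3 libraries, and S490/498 replicate 2 has no bar there because it marked 0 of them (0.224% of all genes).

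In the eIF1 group, all 5 genes were marked in at least 1 library. T69/71 replicate 1 marked 4, replicate 2 marked 5 and S490/498 replicate 1 marked 3. Eif1 encodes the factor that keeps the scanning ribosome from stopping at a wrong codon. Its strongest peaks had folds of 10.3 and 9.54 with T69/71 and 11.6 with S490/498 replicate 1, so the S490/498 value was above both others. The summits held 60, 31 and 42 fragments, and the −log10 q values were 39.0, 20.2 and 30.5. They lay at +525, −26 and −105 bp from the RefSeq start, and T69/71 replicate 2 held a second peak with a fold of 8.66 at 532 bp from the start. Thus 2 of the 3 strongest summits fall in the promoter printed above, and the other lies inside the gene.

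Eif1ax on the X chromosome encodes eIF1A, a partner of eIF1 in scanning. Its folds were 7.77 and 9.25 with T69/71 and 7.27 with S490/498 replicate 1, with summits at −173, −185 and −195 bp. The 3 values lie close together and rest on 11, 13 and 9 fragments. Eif1a, an autosomal copy, had folds of 4.39 and 9.31 with T69/71 and no S490/498 peak. Eif1ad, which encodes a protein with an eIF1A-like domain, had folds of 5.17, 6.08 and 7.27, again highest in S490/498. The strongest summit was also within 1 kb of Tmed7 at Eif1a and of Banf1 at Eif1ad, so these peaks cannot be given to 1 gene. Eif1b, a close relative of Eif1, was marked in T69/71 replicate 2 alone.

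In the eIF2 group, 6 of 10 genes were marked in T69/71 replicate 1, 4 in replicate 2 and 2 in S490/498 replicate 1. None of the 3 eIF2 subunit genes examined had a peak in both T69/71 libraries: Eif2s2, for the beta subunit, was marked in T69/71 replicate 1 and S490/498 replicate 1, Eif2s3x, for the gamma subunit, in T69/71 replicate 1 alone, and Eif2s3y, its Y-linked copy, in none. Of the 5 genes of the exchange factor eIF2B, both T69/71 libraries marked Eif2b2, Eif2b4 and Eif2b5, and no library marked Eif2b1 or Eif2b3. Eif2b4, for a regulatory subunit, had folds of 8.56 and 12.3, at summits shared with Snx17. Eif2b5, which encodes the catalytic subunit, had folds of 6.99 and 7.20 with no S490/498 peak. Eif2b2 had folds of 5.59 and 9.91 with T69/71 and 4.49 with S490/498 replicate 1, the last resting on 5 fragments. Eif2a, for a single-chain factor that can deliver initiator tRNA, had folds of 9.71 and 8.64 at summits shared with Serp1. Eif2d, for another single-chain factor, had no summit within 1 kb of an end.

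The eIF3 group, the largest complex, had 14 genes, of which 7 were marked in T69/71 replicate 1, 6 in replicate 2 and 3 in S490/498 replicate 1. Among the 8 genes of the structural octamer, both T69/71 libraries marked Eif3a, Eif3e, Eif3f and Eif3k, and S490/498 replicate 1 marked Eif3f alone. Eif3c, Eif3h, Eif3l and Eif3m of the octamer were marked in no library. Of the other 6 subunit genes, Eif3d and Eif3j1 were marked in both T69/71 libraries and in S490/498 replicate 1. Eif3b was marked in T69/71 replicate 1, with a fold of 9.18, while Eif3g, Eif3i and Eif3j2 were marked in none. Marking was thus uneven within this complex.

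Eif3d encodes a subunit that can itself bind the mRNA cap. Its folds were 16.9 and 13.9 with T69/71 and 12.4 with S490/498 replicate 1, from 49, 24 and 24 fragments. By −log10 q they stood at percentiles 97.4, 93.6 and 92.6 of their own lists. The summits lay at −192, −189 and −192 bp from the start, within 3 bp of each other. The printed CRE core of Eif3d lies 35, 32 and 35 bp from them.

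Eif3f encodes an octamer subunit of the MPN family. Folds at Eif3f were 14.2 and 8.85 with T69/71 and 11.3 with S490/498 replicate 1, so the S490/498 value fell between the others. Summits were at −169, −85 and −127 bp, which is 99, 15 and 57 bp from the AP-1 form printed above. Eif3j1, for a loosely bound subunit at the mRNA channel, had folds of 9.03, 11.8 and 8.96 with summits at −11, −8 and −8 bp. Its promoter window also holds the AP-1 form, 40, 37 and 37 bp from those summits.

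Eif3a, which encodes the largest scaffold subunit, had folds of 7.91 and 11.5 with T69/71. Eif3e had folds of 4.42 and 5.95, from 4 and 6 fragments, which are among the weakest repeated peaks. Eif3k had folds of 5.65 and 7.74, but its strongest peaks in the 2 libraries did not overlap, and they are shared with Map4k1. A weaker Eif3k peak in T69/71 replicate 2, with a fold of 5.67, did overlap the replicate 1 peak. None of these 3 genes had an S490/498 peak.

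The eIF4 group had 17 genes, with 12 marked in T69/71 replicate 1, 10 in replicate 2 and 9 in S490/498 replicate 1. It holds the RNA helicase eIF4A, the cap binder eIF4E, the scaffold eIF4G and their regulators. Eif4a1, the main helicase gene, had folds of 15.9 and 12.7 with T69/71 and 15.3 with S490/498 replicate 1. The summits held 95, 47 and 60 fragments (exact Poisson 95% intervals 76.9 to 116, 34.5 to 62.5 and 45.8 to 77.2) and stood at percentiles 99, 97.7 and 98.5 of their lists by −log10 q. They lay at +7, +32 and −43 bp, within 11, 36 and 39 bp of the printed CRE core. Senp3 is in reach of the same summits. Weaker peaks with folds of 6.02, 7.27 and 5.50 lay just inside the 1 kb limit.

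Of the other helicase genes, Eif4a3, for a subunit of the exon junction complex, had folds of 7.45, 5.67 and 7.17, from 11, 7 and 10 fragments. The nearest of the 2 CRE cores in its printed promoter lies 72, 2 and 150 bp from the summits. Eif4a2, a close relative of Eif4a1, had folds of 9.76 in T69/71 replicate 1 and 5.63 in S490/498 replicate 1 and no peak in T69/71 replicate 2. Eif4a3l1 was marked in none. The helicase cofactor genes were both marked in both T69/71 libraries, Eif4b with folds of 6.10 and 8.66 and Eif4h with 9.39 and 5.70. Eif4h also had a fold of 4.58 in S490/498 replicate 1, from 5 fragments.

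Among the cap binders, the principal gene Eif4e had no peak within 1 kb in any library, and its nearest summit lay 36.5 kb away. Eif4e1b, a relative described in germ cells, had folds of 7.51, 10.9 and 7.41, but these summits lay 892, 771 and 700 bp beyond its upper end and are shared with Tspan17. Eif4e2 was marked in T69/71 replicate 1 alone with a fold of 4.83, and Eif4e3 in none. Proteins that bind and hold back eIF4E were marked at 3 of 4 genes. Eif4ebp2 had folds of 14.8 and 13.2 with T69/71 and 8.17 with S490/498 replicate 1, with summits at −381, −385 and −308 bp. Both T69/71 values at Eif4ebp2 were above the S490/498 value. Eif4ebp1 had folds of 5.65 and 8.57 at summits 919 and 821 bp from an end. Eif4enif1, for an eIF4E transporter, had folds of 9.24, 7.20 and 6.52, at summits in reach of another gene.

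The scaffold genes Eif4g1 and Eif4g2 were marked in all 3 of these libraries, and Eif4g3 in none. Eif4g2, for a scaffold without the cap-binder site, had folds of 9.70 and 12.4 with T69/71 and 7.92 with S490/498 replicate 1. Eif4g1, the main scaffold gene, had peaks at both ends, and the strongest ones did not coincide. In T69/71 replicate 1 the strongest, with a fold of 12.0, lay 377 bp past the far end and within reach of Fam131a, and a weaker one with a fold of 6.70 lay at the start. T69/71 replicate 2 had only a start peak, with a fold of 9.01, and S490/498 replicate 1 only a far-end peak, with a fold of 9.08.

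**Figure D2:**
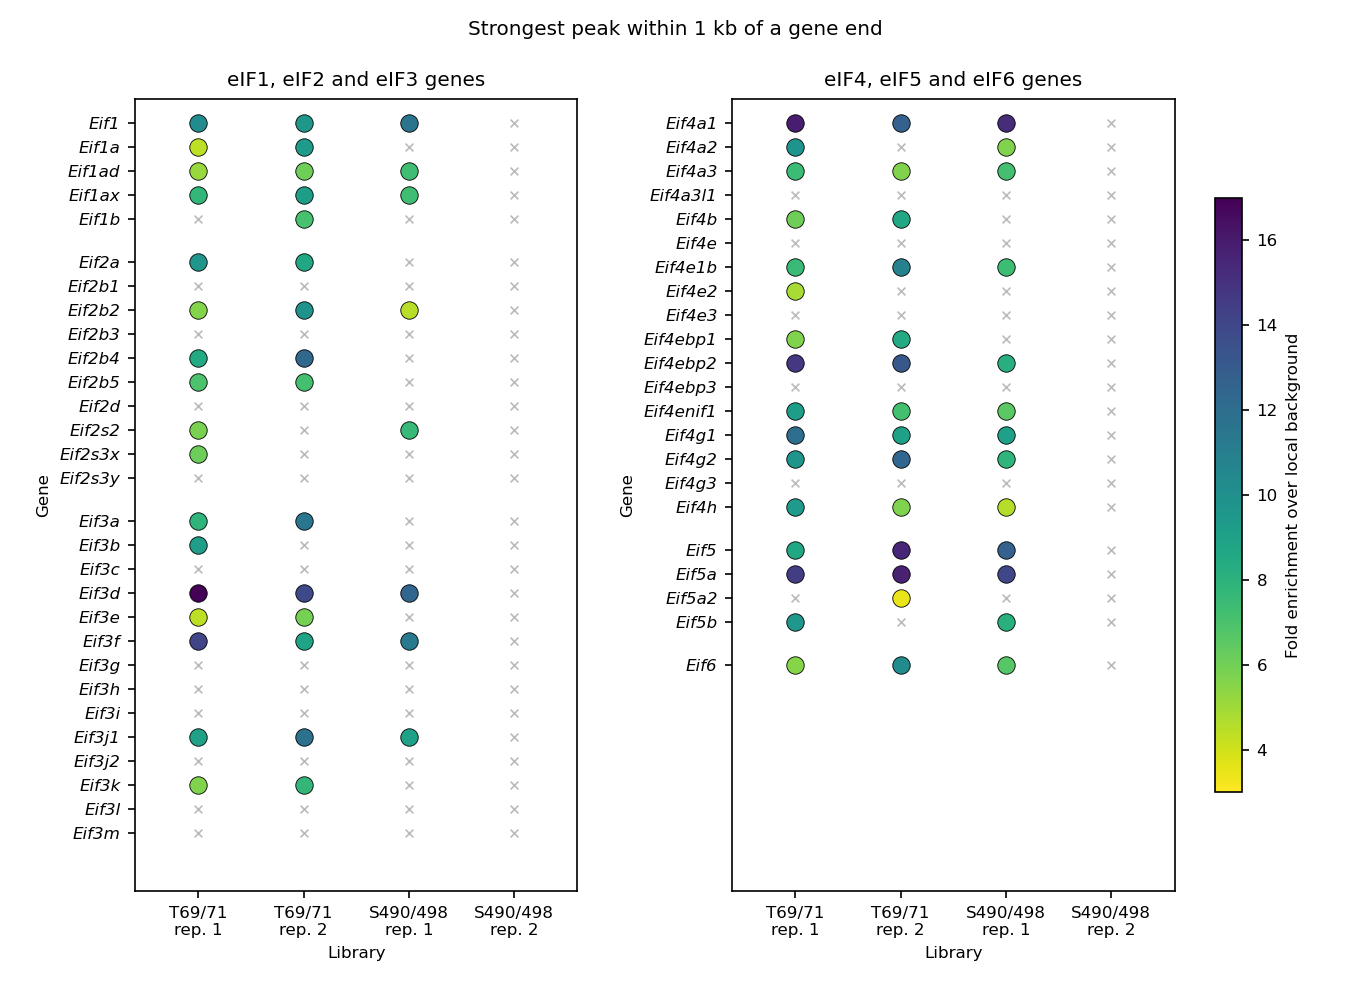
Fold enrichment of the strongest peak within 1 kb of an end, by gene and library, for the 51 initiation factor genes grouped by factor; a grey cross means no summit in reach. The 18 genes with values in both T69/71 libraries and S490/498 replicate 1 include Eif3d, Eif4a1, Eif5a and Eif5, and the S490/498 replicate 2 column holds crosses alone.

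In the eIF5 group, 3 of 4 genes were marked in T69/71 replicate 1, 3 in replicate 2 and 3 in S490/498 replicate 1. Eif5a encodes the factor that carries hypusine, a modified lysine, and helps ribosomes past difficult peptide bonds. At Eif5a (chr11:69916712-69921958, − strand) the folds were 14.5 and 15.7 with T69/71 and 14 with S490/498 replicate 1. The summits held 96, 73 and 61 fragments and stood at percentiles 98.9, 99.3 and 98.4 of their lists by −log10 q. RefSeq gives 6 start windows for this gene, and the summits lay at −77, +5 and +5 bp from the nearest start. S490/498 replicate 2 had no peak there, so the S490/498 value comes from 1 library.

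Eif5 encodes the protein that triggers GTP hydrolysis by eIF2. Its folds were 8.66 and 15.5 with T69/71 and 12.7 with S490/498 replicate 1, so the replicates of T69/71 lay on either side of the S490/498 value. The summits were at −11, −32 and −73 bp, inside the printed promoter, which holds neither motif form. Eif5b, for the subunit-joining GTPase, had peaks in T69/71 replicate 1 (fold 9.60) and S490/498 replicate 1 (fold 8.09), 806 and 913 bp upstream and shared with Txndc9. Eif5a2 had a single peak of 3 fragments in T69/71 replicate 2.

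Eif6, whose product keeps the large ribosomal subunit from joining too early, is the only gene of its group. Its folds were 5.54 and 10.3 with T69/71 and 6.71 with S490/498 replicate 1. These summits lay 625, 621 and 604 bp past its lower end and within reach of other coding genes. Weaker peaks at the upper end had folds of 4.28 and 6.05 with T69/71. The strand of Eif6 is not given in the tables used here, so which end is the start cannot be stated.

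Peaks at initiation factor genes were somewhat higher than peaks at other marked genes. The median fold was 8.56, 9.25 and 7.92 in T69/71 replicates 1 and 2 and S490/498 replicate 1, against 7.20, 7.64 and 6.91 over all marked genes. The median summit held 14, 14 and 12 fragments, against 11, 11 and 10. A count of 14 has an exact Poisson 95% interval of 7.65 to 23.5, so a fold at a typical gene is imprecise. Of the marked initiation factor genes, 7 (21.2%), 8 (27.6%) and 5 (23.8%) had a peak above the 90th percentile of its list by −log10 q, against 16.3%, 16.5% and 14.2% of all marked genes. These differences were not tested.

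The T69/71 replicates put the strongest peak at the same place at most genes. Of the 27 genes marked in both, 25 had overlapping strongest peaks, with Eif3k and Eif4g1 as the others, and the median distance between summits was 31.0 bp. Fold height varied more: 10 genes were higher in replicate 1 and 17 in replicate 2, and the correlation of log2 folds across these genes was 0.52 (Pearson) and 0.49 (Spearman). Over all 4618 genes marked in both, 2075 were higher in replicate 1 and 2543 in replicate 2, with correlations of 0.60 and 0.59. Across antibodies, the Pearson correlation at initiation factor genes was 0.64 for T69/71 replicate 1 with S490/498 replicate 1 (21 genes). It was 0.63 for T69/71 replicate 2 with S490/498 replicate 1 (18 genes). Over all genes these values were 0.75 and 0.59. The genes compared differ between pairs of libraries, and the points share their libraries and are not independent. All 21 genes marked in S490/498 replicate 1 were also marked in T69/71 replicate 1, against 88.6% over all genes, and all 21 strongest peaks overlapped. T69/71 replicate 2 marked 18 of the 21 (85.7%), close to the 85.0% over all genes. There 16 of the 18 strongest peaks overlapped, with Eif1ad and Eif4g1 as the others. At Eif1ad, T69/71 replicate 2 held 2 peaks with the same fold (6.08) and −log10 q (5.36). The one not taken as strongest did overlap the S490/498 peak.

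**Figure D3:**
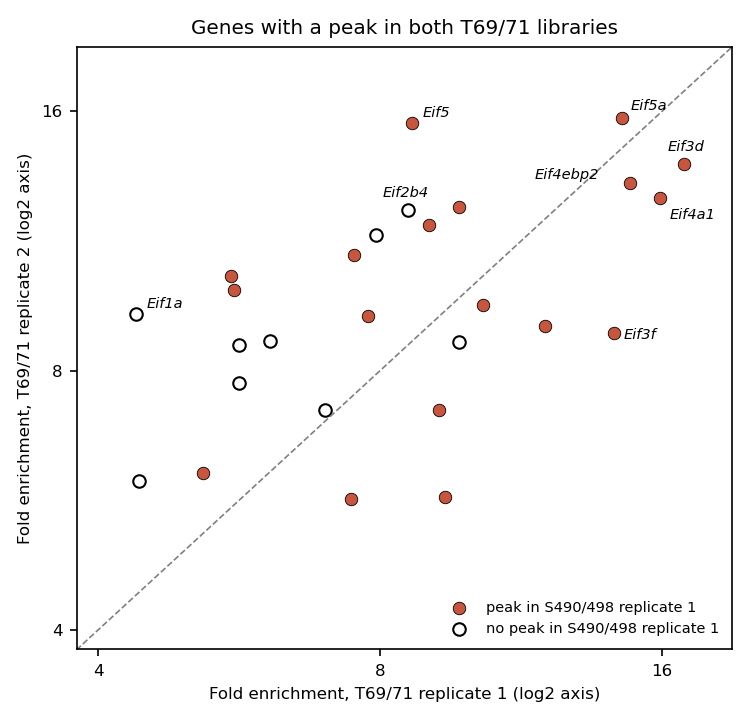
Fold enrichment at the 27 initiation factor genes marked in both T69/71 libraries, replicate 1 on the x axis and replicate 2 on the y axis, both on a log2 scale with the line of equality, and genes with a peak in S490/498 replicate 1 set apart by colour. Eif5a, Eif4a1 and Eif3d lie at the upper right, and 17 genes lie above the line.

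The mean share of initiation factor genes marked was 60.8% for T69/71 and 20.6% for S490/498, a difference of 40.2 percentage points (pooled SD 21.0, n = 2 libraries each). Without S490/498 replicate 2 the difference was 19.6 points, and without S490/498 replicate 1 it was 60.8 points. With each T69/71 list cut to the length of S490/498 replicate 1 it was 26.5 points. This value still averages in S490/498 replicate 2, whose list stayed at 435 peaks. The difference at that length without S490/498 replicate 2 was not computed. T69/71 also marked more of all protein-coding genes, at 27.5% and 27.9% against 17.9% and 0.224% for S490/498 replicates 1 and 2. The difference is thus not particular to initiation factor genes. With 2 libraries against 2, an exact two-sided permutation test cannot give a p below 0.333, so none was run. Of the 27 genes marked in both T69/71 libraries, 66.7% were also marked in S490/498 replicate 1, against 67.5% over all genes. Seen from the S490/498 list, 85.7% of its 21 genes were among the 27, against 79.6% over all genes.

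At the 18 genes with peaks in all 3 of these libraries, the S490/498 fold was below both T69/71 folds at 10, between them at 6 and above both at 2, Eif1 and Eif1ad. Lower S490/498 folds were general: T69/71 replicate 1 was the higher at 2711 of 3470 genes marked in both it and S490/498 replicate 1, and T69/71 replicate 2 at 2436 of 3328. The 9 genes with T69/71 peaks alone, among them Eif3a, Eif3e, Eif4b and Eif2b5, had T69/71 folds with medians of 6.10 and 8.64 in replicates 1 and 2. For the 18 the medians were 9.32 and 10.1, so genes without an S490/498 peak tended to have lower T69/71 peaks. The ranges overlapped, at 4.39 to 9.71 against 5.17 to 16.9 in replicate 1. With the T69/71 lists cut to the length of the S490/498 list, Eif2a, Eif2b4, Eif2b5, Eif3a and Eif4b of these genes were still marked in both T69/71 libraries, and Eif1a, Eif3e, Eif3k and Eif4ebp1 were not.

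Summits lay near the start at most initiation factor genes, as at marked genes in general. Where RefSeq gives a start, 19 of 27 (70.4%), 20 of 23 (87%) and 14 of 18 (77.8%) strongest summits lay within 250 bp of it, against 72.6%, 73.8% and 72.1% for all genes. The median position was −44, −34 and −58 bp. In each library about as many strongest summits were shared with another coding gene (11, 9 and 7 genes, or 33.3%, 31.0% and 33.3%) as over all marked genes (32.9%, 31.2% and 36.6%). For 10 of the 35 marked genes, among them Eif4a1, Eif6 and Eif2a, the summit was shared in every library that marked them. Among nearest summits, the farthest that still counted were those of Eif4ebp1 (919 bp), Eif5b (913 bp) and Eif4e1b (892 bp). Additional weaker summits counted at Eif4a1 (996, 996 and 1000 bp) and Eif3k (949 bp), genes with a nearer summit in the same library. No unmarked gene had its nearest summit between 1 and 2 kb.

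**Figure D4:**
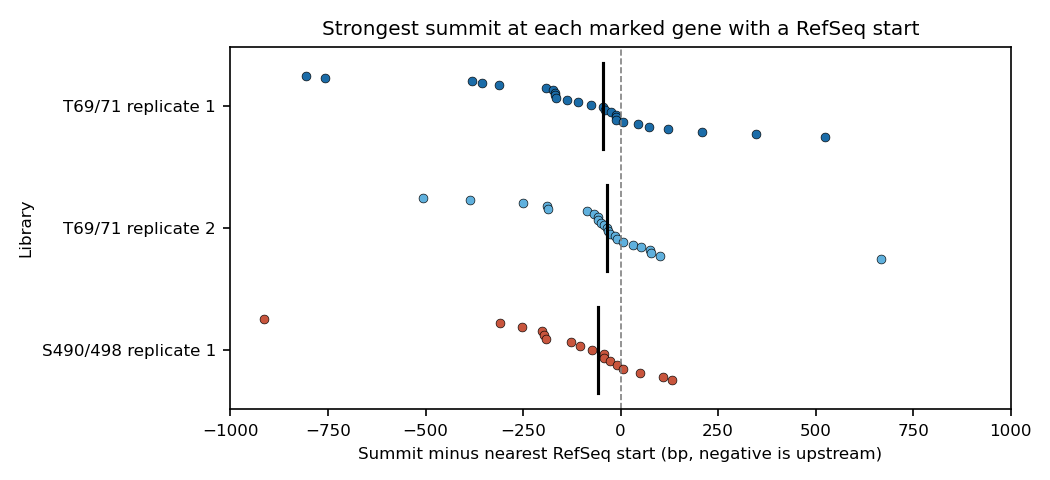
Position of the strongest summit relative to the nearest RefSeq start (x axis, bp, negative is upstream) for initiation factor genes with a known start, by library. Within 250 bp of the start lie 19 of 27, 20 of 23 and 14 of 18 summits, and the far-end summits of Eif4g1 in T69/71 replicate 1 and S490/498 replicate 1 fall outside the axis.

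The promoter letters were counted in 39 initiation factor windows and in 17492 windows of all genes, on both strands, over 250 bases before to 50 after the start. The full CRE form TGACNTCA occurred in 0 of 39, against 9.99% of all windows. Its core TGACG, which the full form contains when the variable base is G, occurred in 21 (53.8%), against 26.2%. The AP-1 form TGANTCA occurred in 4 (10.3%), those of Eif1, Eif3f, Eif3j1 and Eif3l, against 8.12%. Initiation factor windows were also richer in GC (median 62.7% against 57.3%), and TGACG itself contains a CpG, so the part of composition in that share was not tested. Among initiation factor genes marked in both T69/71 libraries, 13 of 21 (61.9%) held TGACG, against 8 of 18 (44.4%) of the others. Over all genes the shares were 44.8% and 21.0%, while those of the full CRE form were 10.7% and 9.78%. The AP-1 form was held by 3 of 21 (14.3%) against 1 of 18 (5.56%), while over all genes its shares were 4.70% and 9.09%.

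Other genes of translation were taken from a list of 40, all of which matched the annotation. Both T69/71 libraries marked 24 of them (60.0%) and S490/498 replicate 1 marked 20, against the 21.1% and 17.9% of all genes given above. The list was chosen with earlier results of these data known, and no share among CpG-rich genes is given for it. In both T69/71 libraries, 5 of 7 genes of an eEF1 list and 3 of 3 of an eEF2 list were marked. The eEF1 list includes Eef1e1 and Eefsec, and the eEF2 list is Eef2, Eef2k and Eef2kmt, so not every gene encodes an elongation factor. Termination and recycling genes were marked at 3 of 4, and other initiation helpers at 10 of 15. Etf1, the release factor that reads stop codons, had folds of 13.9, 14.7 and 11.4. Eef2, the translocase, had 15.3, 12.7 and 15.0, at summits shared with Dapk3, and Abcf1, an eIF2-associated ATPase, had 14.3, 12.2 and 13.6. Of the 2 genes for hypusine synthesis, the modification of eIF5A, Dohh had folds of 10.1, 10.4 and 6.88. The kinase genes were marked at 2 of 6 in both T69/71 libraries. Mknk2 had folds of 9.65, 9.34 and 11.3, and Rps6kb1 had 7.94 and 13.5 with T69/71, with Tubd1 in reach. Mtor was marked in T69/71 replicate 1 alone (fold 6.64). Mitochondrial initiation genes were marked at 0 of 3 in both, with Mtif2 (fold 4.42) and Mtif3 (fold 4.14) marked in T69/71 replicate 1.

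No library marked 16 initiation factor genes. They are Eif2b1, Eif2b3, Eif2d, Eif2s3y, Eif3c, Eif3g, Eif3h, Eif3i, Eif3j2, Eif3l, Eif3m, Eif4a3l1, Eif4e, Eif4e3, Eif4ebp3 and Eif4g3. The nearest summit in any library was 2.15 kb away at Eif3c, 3.83 kb at Eif4ebp3 and 5.20 kb at Eif2b1, and 135 kb away at Eif3m. At the Y-linked Eif2s3y it was 2988 kb away in T69/71 replicate 2 and at least 89689029 bp away in each other library. The lists thus held hardly any peaks around Eif2s3y, so its lack of marking says little. The absence of a peak is a statement about these lists, whose depth is low, and does not show that the factor was absent.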

How the data were processed

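ATF2 CUT&Tag peaks of 4 mouse libraries, 2 per antibody, were analysed from the deposited lists, 1 list per library. Per the submitters' processing notes, FastQC 0.11.5, Bowtie2 2.2.9, MACS2 and ChIPseeker were used with mm10. The sources used here give neither MACS2 settings nor duplicate removal. Each list as deposited by the authors has a fold enrichment (a ratio), a score, −log10 p and −log10 q per peak. The deposited score was not used. The lists hold peaks with q under 0.05.

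Gene ends and promoter windows came from RefSeq tables of GRCm38.p6; 39 of 51 genes matched a window, which alone gives the strand. The fragments at each summit were recovered by solving the deposited fold and −log10 p for a whole number, to within 0.001, for at least 99.8% of peaks per list. Marking was counted within 1 kb of either end. The peak with the highest −log10 q was described per gene, and its percentile is its rank by −log10 q within its list. Intervals are exact at 95%. The steps were tested on simulated data. Python 3.11.15, pandas 2.3.3, numpy 2.4.6 and scipy 1.17.1 were used. No test between groups was run.

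Genes marked in both T69/71 libraries were named with values in every library, and other genes of the set by name and mostly without full values. Pathway genes were named up to 3 per group, by number of libraries and then rank. The members and lists were chosen with earlier results of these data known. Alternatives varied the distance, q, list length, gene assignment and libraries.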

Additional observations from a re-analysis of the deposited data

How the results depend on the processing

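At −log10 q of at least 10, both T69/71 libraries marked 11 initiation factor genes instead of 27 (background 7.79%), S490/498 replicate 1 marked 8 instead of 21 (5.88%), and all 3 marked 8 instead of 18 (4.75%). Fewer peaks enter at that limit. Leaving out 1 library gave 29 to 33 genes for T69/71, 18 to 27 for the 3 libraries together, and an antibody difference of 19.6 to 60.8 percentage points, lowest without S490/498 replicate 2. With the T69/71 lists cut to the length of S490/498 replicate 1, both T69/71 libraries marked 18 (13.6%). The antibody difference was then 26.5 points, with the far shorter list of S490/498 replicate 2 still in the mean. Without peaks in reach of another coding gene, both T69/71 libraries marked 20 (13.8%), and with the start alone 21 of 39 (53.8%, against 22.9%). No alternative reversed the antibody difference, but S490/498 replicate 2 pulled down the S490/498 mean in each alternative that kept it. None both left that library out and cut the T69/71 lists, so the size of the difference under those conditions was not computed. At that length S490/498 replicate 1 alone marked 41.2%, against an S490/498 mean of 20.6%. The difference without S490/498 replicate 2 is therefore well below 26.5 points, with the same sign. No paired analysis was possible because no test was run and the replicate numbers name no shared mouse, batch or day. The pileups, with medians of 12 to 14 fragments at these genes, limit the precision of every fold.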

Other observations

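Peaks inside the genes, more than 1 kb from both ends, numbered 8 at 7 initiation factor genes, and 7 of them came from T69/71 replicate 2. At Eif5b, which had no T69/71 replicate 2 peak at an end, that library held 2 such peaks with folds of 4.05 and 5.88. Among genes with no peak at an end, Eif4g3 (fold 8.41), Eif3h (fold 8) and Eif2b3 (fold 5.43) had one in T69/71 replicate 2, and Eif2d (fold 7.80) had one in T69/71 replicate 1. None was found in the S490/498 lists. The RefSeq table also holds 11 pseudogenes and 1 long non-coding RNA with an Eif symbol, and 0 of these had a summit within 1 kb of an end in any library.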
